A study of Mus musculus with 18 samples.

Results

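A pair of agonists of adrenergic receptors were set directly against each other in mouse small intestinal organoids: UK14,304, a selective agonist of the α2 receptors, and norepinephrine, the natural ligand of the whole family. All samples whose treatment label was UK14,304 (5 samples) or norepinephrine (5 samples) were taken, which made 10 of the 18 bulk RNA-sequencing libraries. The other libraries were 4 treated with the HCl vehicle of norepinephrine and 4 treated with the DMSO vehicle of UK14,304, and they entered the fits only to estimate the spread between samples and to show what the vehicles themselves did. Every organoid line was wild type (WT in the labels) and, according to the methods of the study, came from small intestinal crypts of female C57BL/6 mice, with mice of 8 to 12 weeks used in the study, and was grown for 4 passages before stimulation. Each agonist was given at 1 µM for 4 days. The sample titles carry a number from 1 to 5, and samples with the same number were taken as a matched pair (for example UK14,304 1 and norepinephrine 1); the labels do not spell out what the number stands for. Because the vehicles differ, a direct difference between the agonists also holds whatever difference lies between DMSO and HCl. Both the vehicle difference and the vehicle-corrected difference are therefore given for the genes that passed, for the hypoxia and glycolysis list and as gene counts. For other genes only the direct difference is given.

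Adrenergic receptors are G protein-coupled receptors. The α1 receptors act mainly through Gq and calcium, the α2 receptors through Gi, which lowers cyclic AMP, and the β receptors through Gs, which raises it. A full ligand such as norepinephrine can therefore push cyclic AMP in either direction according to which receptors a cell carries, whereas a selective α2 agonist engages the Gi branch. In the intestine norepinephrine is released by sympathetic nerve fibers that run close to the crypts.

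Which receptors these organoids express bears on what the comparison can show. Adra2a (ENSMUSG00000033717, chr19:54044151-54048982, plus strand), the α2A receptor, had between 571 and 830 counts in each of the 10 samples. Its level was 27.6, 26.4, 28.5, 29.1 and 25.1 CPM (counts relative to the library total after TMM scaling) in the norepinephrine samples 1 to 5 and 27.6, 29.8, 29.5, 25.6 and 24.7 CPM in the UK14,304 samples 1 to 5. The groups overlapped over nearly their whole range. The log2 difference (UK14,304 minus norepinephrine) was 0.00 (SE 0.07, 95% interval -0.13 to 0.14), with edgeR's adjusted p = 1, so a difference of more than about 0.14 on the log2 scale in either direction lay outside the interval. Per kilobase of gene model, its level was 5.66 CPM per kb with norepinephrine and 5.68 CPM per kb with UK14,304. Adra1a, Adra1b, Adra1d, Adra2b, Adra2c, Adrb1 and Adrb3 had at most 2 counts in any of the 10 samples, which is below the level at which a difference between the agonists could be seen.

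The libraries held 21.9 to 27.9 M counts, and the difference in depth between the agonist groups was within their spread (24.3 ± 1.61 M with norepinephrine and 25.7 ± 2.32 M with UK14,304, SD, n = 5 each; two-sided exact permutation test, p = 0.286). The organoid label held against its markers. The 7 epithelial genes (Epcam, Cdh1, Vil1, Krt8, Krt18, Krt19 and Krt20) summed to 7342 to 7900 CPM with norepinephrine and 7259 to 7815 CPM with UK14,304, while the 6 mesenchymal genes summed to 6.71 to 9.82 and 7.13 to 9.42 CPM, nearly all from Vim. The 5 immune genes summed to 2.30 to 3.12 and 2.55 to 3.68 CPM, the 3 endothelial genes to 0.631 to 0.978 and 0.467 to 0.991 CPM, and the 5 neuronal and glial genes to 1.76 to 2.71 and 1.54 to 2.81 CPM. For none of these sums was the difference between the agonists larger than the spread between samples (exact permutation test, p = 0.341 to 0.984), and Sox10 was at 0 in all 10 samples. Reads of CT010467.1, a ribosomal RNA gene, made up more than 1% of the total in 2 of 5 norepinephrine and 1 of 5 UK14,304 libraries.

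The pair with number 4 stands apart. The slope of log2 expression on the GC content of the transcripts was -0.07, -0.09, -0.12, 0.19 and -0.15 (log2 per 10 percentage points) in the norepinephrine libraries 1 to 5, and 0.06, -0.02, -0.09, -0.22 and -0.002 in the UK14,304 libraries 1 to 5. Norepinephrine 4 had the only positive slope of its group, and UK14,304 4 the most negative slope of all 18 libraries. Within the other 4 pairs the slope was higher in the UK14,304 library, by 0.03 to 0.14, and in pair 4 it was lower by 0.42. Over the 5 against 5 libraries the difference of the mean slopes was -0.009, within the spread (exact permutation test, p = 0.905). Whether the slope accounts for any single result was not tested, so results of the blocked model with the GC trend removed from each library, and without number 4, are given beside the genes and lists whose calls they change.

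Across all 15247 genes tested, the direct difference between the agonists was small. The median log2 difference was 0.00582 and the median absolute difference 0.05. The 95% interval lay within ±0.5 on the log2 scale for 11241 genes (73.7%) and within ±1 for 14243 genes (93.4%). In the model without pairs, 2 genes passed an adjusted p of 0.05 (0.0131% of the genes tested), 1 higher (0.00656%) and 1 lower with UK14,304 (0.00656%). At an unadjusted p below 0.05 there were 483 genes (3.17%), 215 of them higher (1.41%) and 268 lower (1.76%). With the sample number as a replicate block, 10 genes passed (0.0656%), 3 higher (0.0197%) and 7 lower (0.0459%), while 871 (5.71%) were at an unadjusted p below 0.05, 342 of them higher (2.24%) and 529 lower (3.47%). In all 5 pairs 360 genes were higher (2.36%) and 479 lower (3.14%) with UK14,304. All 10 genes called with the block kept their direction in all 39 fits of the comparison. As each had one sign in all 5 pairs, refits of the same samples could hardly change it, so this is not separate support. The count of calls moved widely with the samples fitted. Fitted to the 10 agonist samples alone, edgeR with the block called 0 genes at the adjusted threshold (525 at an unadjusted p below 0.05), and with one number left out at a time the 4-group block fit called 1, 0, 0, 984 and 6 genes without numbers 1, 2, 3, 4 and 5. Of the 984 genes called without number 4, 388 were higher and 596 lower with UK14,304, and they held all 10 of the genes above. The 10 agonist samples alone without number 4 gave 1330 calls, again with all 10. With the GC trend removed from each library and the block kept, 112 genes were called (17 higher, 95 lower), and 30 to 224 with one number left out.

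**Figure D1:**
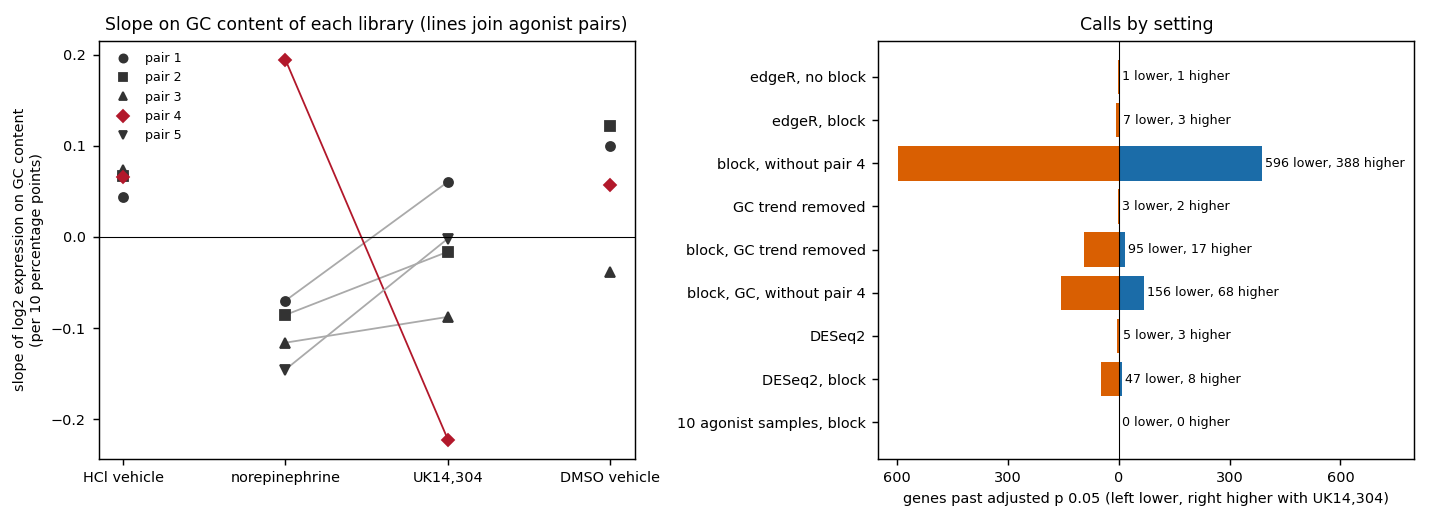
Left, slope of log2 expression on GC content (log2 per 10 percentage points) for each of the 18 libraries, with lines joining the norepinephrine and UK14,304 libraries of one number. Pair 4 (red) runs from 0.19 to -0.22 while the other 4 pairs rise. Right, number of genes past an adjusted p of 0.05 by setting, to the left those lower and to the right those higher with UK14,304; the count goes from 2 in the model without pairs to 984 with the block and without pair 4.

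Between the vehicles, 0 genes passed an adjusted p of 0.05 by edgeR without or with the block (194 and 277 genes, 1.27% and 1.82%, had an unadjusted p below 0.05), and 0 by DESeq2. The vehicle-corrected difference, that is the UK14,304 effect over DMSO minus the norepinephrine effect over HCl, passed for 0 genes by edgeR (230 genes, 1.51%, at an unadjusted p below 0.05, and 405, 2.66%, with the block), and for 1 gene, Rbm3, by DESeq2 with the block. It passed for 12 genes with the block and without number 4. That contrast combines 4 group means instead of 2 and has the larger standard error.

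Rbm3 and Hist1h1c passed in both models. Rbm3 encodes an RNA-binding protein induced by mild cold, and Hist1h1c encodes the linker histone H1.2. Rbm3 (ENSMUSG00000031167, chrX:8138975-8145880, minus strand) was at 39.3, 40.6, 46.3, 40.2 and 40.7 CPM in norepinephrine samples 1 to 5 and at 32.8, 30.1, 34.4, 30.3 and 32.4 CPM in UK14,304 samples 1 to 5. Every UK14,304 sample lay below every norepinephrine sample, which held in this direction for 0.367% of all genes tested. The vehicle samples, at 41.2 to 45.5 CPM with HCl and 41.5 to 47.1 CPM with DMSO, lay above all UK14,304 samples and overlapped the norepinephrine samples. Rbm3 fell by 0.37 on the log2 scale (SE 0.05, 95% interval -0.49 to -0.26; edgeR's adjusted p = 0.0155, and 3.89e-04 with the block), which is 0.772 times the norepinephrine level. It was lower in 5 of 5 pairs, with pair differences of -0.43 to -0.26. The vehicle-corrected difference was -0.39 (SE 0.08), with edgeR's adjusted p = 1 without and 0.0563 with the block, and the vehicles differed by 0.02 (SE 0.06). Part of the Rbm3 locus overlaps the opposite-strand gene Rbm3os and the counting did not use strand, and 21.2% of its longest transcript has near copies in 7 other genes. Without norepinephrine 3, UK14,304 1 or UK14,304 2 the adjusted p in the model without pairs was 0.0587, 0.0520 and 0.0885, and with the block and without number 2 or 3 it was 0.0507 and 0.0503. Cirbp, the other cold-inducible RNA-binding protein in the list, was at 26.1 to 30.6 and 27.8 to 32.5 CPM, with a log2 difference of 0.07 (SE 0.06, 95% interval -0.06 to 0.19) that did not pass.

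Hist1h1c (ENSMUSG00000036181, chr13:23738808-23740367, plus strand) was at 18.6, 18.4, 17.2, 20.2 and 21.7 CPM in norepinephrine samples 1 to 5 and at 24.2, 25.5, 25.6, 23.5 and 27.7 CPM in UK14,304 samples 1 to 5. The 2 groups did not overlap, which held in this direction for 0.334% of all genes tested. It was at 19.4 to 21.5 CPM with HCl and 19.3 to 22.2 CPM with DMSO. Hist1h1c rose by 0.40 (SE 0.07, 95% interval 0.26 to 0.53), or 1.32 times (adjusted p = 0.0418 in edgeR without and 0.00471 with the block), and was higher in 5 of 5 pairs, by 0.22 to 0.57. The vehicle-corrected difference was 0.40 (SE 0.10), which did not pass (edgeR's adjusted p = 1, and 0.563 with the block). The vehicles differed by 0.00 (SE 0.07). The call of Hist1h1c was lost more often than that of Rbm3. Leaving out norepinephrine 1, 2 or 3 or UK14,304 1, 2, 3 or 5 raised the adjusted p without the block to between 0.0520 and 0.202, and leaving out number 1, 2 or 3 raised it with the block to 0.160, 0.116 and 0.149.

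**Figure D2:**
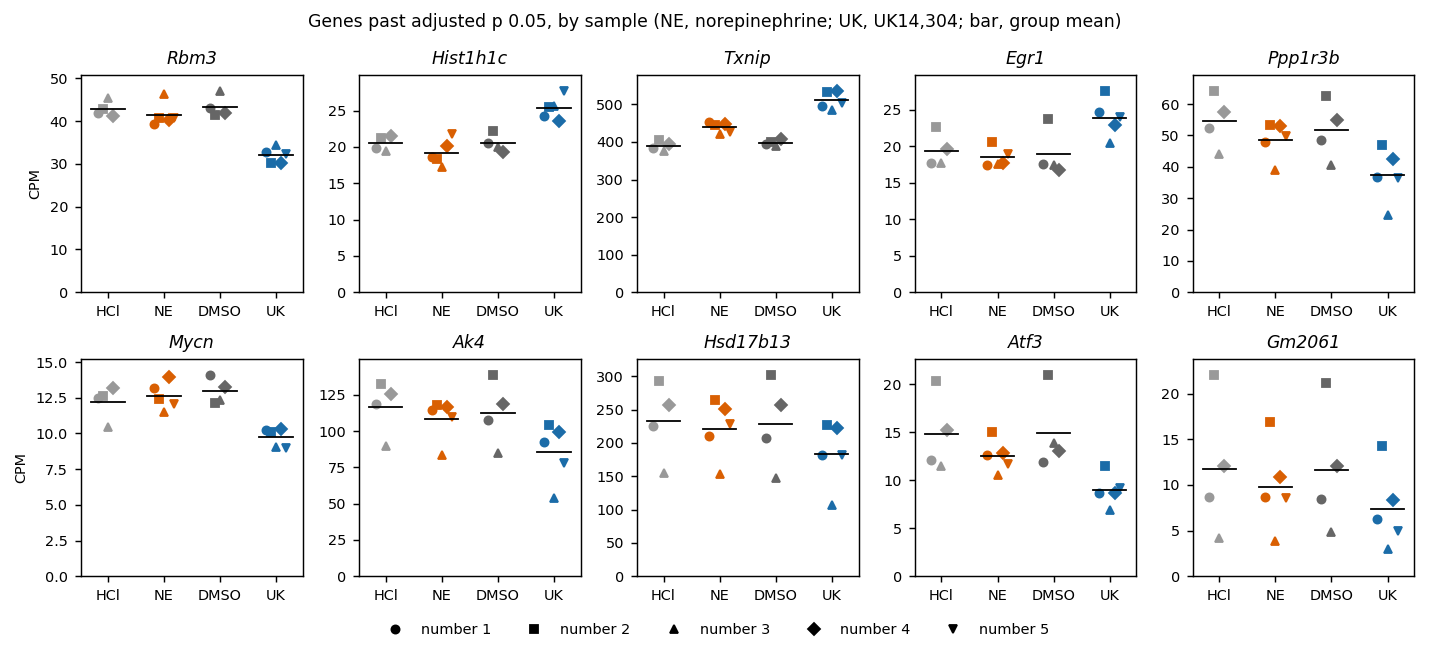
CPM (linear axis from 0) of the 10 genes past an adjusted p of 0.05 in either model, in each of the 18 samples by group, with a bar at the group mean and a marker shape for each sample number. Rbm3 is at 30.1 to 34.4 CPM with UK14,304 and at 39.3 or above in every other sample; Gm2061 and Hsd17b13 differ more between numbers than between groups.

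Promoter sequences of the leading genes were taken from RefSeq (GRCm38.p6) for the 250 bases before the transcription start. Of the called genes only Rbm3, Hist1h1c, Txnip and Atf3 were looked up, and Rbm3 had no entry. The others shown are Pfkfb3, Egln3 and Ankrd37, the members of the hypoxia and glycolysis list with the smallest p-values among those lower with UK14,304. Capitals mark matches on either strand to TGACG (part of a cyclic AMP response element), TGACGTCA (the whole element), CACGTG (E-box), ACGTG (core of a hypoxia response element), CCAAT or TATAAA, and overlapping matches run together. Over 32851 RefSeq promoter windows of the same length, TGACG occurred in 17.8%, TGACGTCA in 1.55%, CACGTG in 6.02%, ACGTG in 16.6%, CCAAT in 33.8% and TATAAA in 12.4%.
Hist1h1c (chr13:23738557-23738806, plus strand): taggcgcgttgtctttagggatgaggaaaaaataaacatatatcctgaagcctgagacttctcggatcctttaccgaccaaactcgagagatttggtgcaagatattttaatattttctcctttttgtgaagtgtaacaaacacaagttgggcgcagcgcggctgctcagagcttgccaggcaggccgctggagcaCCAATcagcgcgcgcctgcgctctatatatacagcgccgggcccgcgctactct
Txnip (chr3:96557707-96557956, plus strand): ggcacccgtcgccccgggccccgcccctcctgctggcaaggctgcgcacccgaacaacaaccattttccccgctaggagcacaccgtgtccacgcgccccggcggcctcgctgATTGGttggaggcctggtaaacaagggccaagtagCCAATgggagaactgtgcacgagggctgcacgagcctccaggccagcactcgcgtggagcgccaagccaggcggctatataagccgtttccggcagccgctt
Atf3 (chr1:191183334-191183583, minus strand): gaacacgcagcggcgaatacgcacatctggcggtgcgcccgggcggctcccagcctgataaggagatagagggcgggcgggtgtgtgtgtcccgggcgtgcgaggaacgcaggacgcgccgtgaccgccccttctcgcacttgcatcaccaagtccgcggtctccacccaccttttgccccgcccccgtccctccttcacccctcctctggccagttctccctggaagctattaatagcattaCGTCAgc
Pfkfb3 (chr2:11553930-11554179, minus strand): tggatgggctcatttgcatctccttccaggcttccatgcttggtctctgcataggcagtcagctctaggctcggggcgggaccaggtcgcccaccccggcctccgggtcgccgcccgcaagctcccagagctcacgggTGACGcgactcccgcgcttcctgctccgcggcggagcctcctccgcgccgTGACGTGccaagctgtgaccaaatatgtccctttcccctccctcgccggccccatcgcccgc
Egln3 (chr12:54203875-54204124, minus strand): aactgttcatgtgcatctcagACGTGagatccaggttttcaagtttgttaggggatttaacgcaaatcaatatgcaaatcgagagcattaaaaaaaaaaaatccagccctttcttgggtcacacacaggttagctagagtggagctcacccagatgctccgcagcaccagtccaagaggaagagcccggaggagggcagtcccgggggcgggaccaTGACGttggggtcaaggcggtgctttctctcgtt
Ankrd37 (chr8:45999851-46000100, minus strand): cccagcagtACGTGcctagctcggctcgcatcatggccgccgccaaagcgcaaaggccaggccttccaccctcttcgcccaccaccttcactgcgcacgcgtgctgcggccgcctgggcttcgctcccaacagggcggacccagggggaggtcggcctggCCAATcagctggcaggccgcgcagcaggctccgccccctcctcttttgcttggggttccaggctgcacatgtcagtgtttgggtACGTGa
The windows of Hist1h1c and Txnip hold CCAAT matches, that of Atf3 a TGACG match on the opposite strand close to the start, and those of Pfkfb3, Egln3 and Ankrd37 each at least 1 ACGTG match.

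With the replicate block, Txnip and Egr1 also passed as higher with UK14,304. Txnip encodes the thioredoxin-interacting protein, which restrains glucose uptake. Txnip (chr3:96557957-96561883, plus strand) was at 454, 444, 422, 448 and 426 CPM in norepinephrine samples 1 to 5 and at 495, 532, 484, 537 and 505 CPM in UK14,304 samples 1 to 5, with no overlap. Both agonist groups lay above the vehicles (377 to 405 CPM with HCl and 389 to 407 CPM with DMSO), the UK14,304 group furthest. The log2 difference between the agonists was 0.22 (SE 0.04, 95% interval 0.14 to 0.30) without the block (edgeR's adjusted p = 0.066) and 0.22 (SE 0.03, 95% interval 0.16 to 0.28) with it (adjusted p = 0.00471). The pairs ranged from 0.13 to 0.26. Its locus overlaps the opposite-strand gene Gm15441, from which unstranded reads cannot be told apart.

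Egr1 encodes an immediate early transcription factor that responds to growth factors and ERK. It was at 17.5, 20.6, 17.6, 17.7 and 19 CPM in norepinephrine samples 1 to 5 and at 24.6, 27.6, 20.5, 22.9 and 23.9 CPM in UK14,304 samples 1 to 5. The ranges overlapped by UK14,304 3, which at 20.5 CPM lay just below norepinephrine 2 at 20.6 CPM, but every pair was higher with UK14,304 (by 0.22 to 0.49). Egr1 rose by 0.37 (SE 0.06, 95% interval 0.25 to 0.49) with the block (edgeR's adjusted p = 0.0124). Without the block the adjusted p was 0.574.

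The genes lower with UK14,304 in the blocked model besides Rbm3 were Ppp1r3b, Mycn, Ak4, Hsd17b13, Atf3 and Gm2061. Mycn, a MYC family transcription factor of progenitor cells, was at 13.2, 12.4, 11.5, 14 and 12.1 CPM in norepinephrine samples 1 to 5 and at 10.2, 10.1, 9.09, 10.3 and 8.99 CPM in UK14,304 samples 1 to 5. The groups did not overlap and the 5 pair differences were close to each other (-0.44 to -0.30). Mycn fell with the block by 0.37 on the log2 scale (SE 0.06, edgeR's adjusted p = 0.0138, and 0.177 without the block). Atf3, a stress-induced transcription factor, was at 12.6, 15.1, 10.5, 12.8 and 11.7 CPM in norepinephrine samples 1 to 5 and at 8.63, 11.4, 6.9, 8.65 and 9.16 CPM in UK14,304 samples 1 to 5. The groups overlapped, since UK14,304 2 was above norepinephrine 3, but every pair was lower with UK14,304 (-0.60 to -0.35). Its blocked log2 difference of -0.49 (SE 0.09, 95% interval -0.68 to -0.31) was the largest in size among the 10 called genes (edgeR's adjusted p = 0.0386).

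Ppp1r3b, which targets protein phosphatase 1 to glycogen, was at 47.8, 53.3, 39, 53.1 and 50 CPM in norepinephrine samples 1 to 5 and at 36.8, 46.9, 24.6, 42.6 and 36.3 CPM in UK14,304 samples 1 to 5. Ak4, a mitochondrial adenylate kinase, was at 114, 118, 83.2, 117 and 109.8 CPM and 92.3, 104, 54, 99.5 and 77.9 CPM. Hsd17b13, a lipid droplet dehydrogenase, was at 210.3, 264, 153, 251 and 228 CPM and 182, 227, 106, 222 and 182 CPM. In all 3 genes the samples of number 3 were the lowest of each group, the samples of number 2 the highest, and the groups overlapped, so that the differences stand out only within pairs. With the block the log2 differences were -0.39 (SE 0.06, edgeR's adjusted p = 0.00489), -0.36 (SE 0.06, adjusted p = 0.0138) and -0.29 (SE 0.05, adjusted p = 0.0138). Gm2061, a long noncoding RNA gene that overlaps Slc30a10 on the opposite strand, ranged 3.91 to 16.8 CPM within the norepinephrine group and 2.93 to 14.2 CPM within the UK14,304 group, and was lower in 5 of 5 pairs by 0.24 to 0.78 (blocked log2 difference -0.45, SE 0.08, edgeR's adjusted p = 0.0442). Corrected for the vehicles with the block, the differences of Txnip, Egr1, Ppp1r3b and Mycn were 0.19, 0.42, -0.31 and -0.46. Those of Ak4, Hsd17b13, Atf3 and Gm2061 were -0.30, -0.25, -0.51 and -0.46. In the same order, the vehicles (DMSO minus HCl) differed with the block by 0.03, -0.04, -0.08, 0.09, -0.06, -0.04, 0.02 and 0.01. None of these values passed an adjusted p of 0.05 in edgeR.

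**Figure D3:**
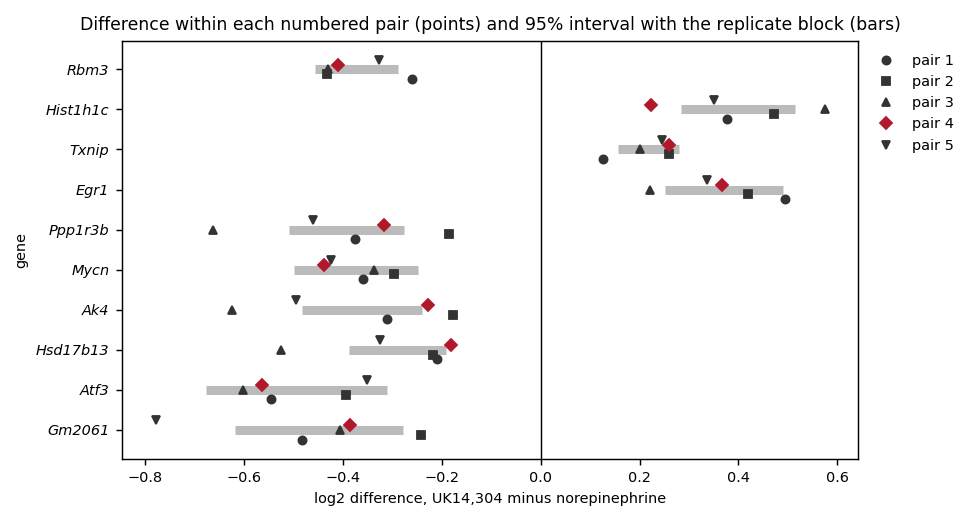
Log2 difference (UK14,304 minus norepinephrine) within each of the 5 numbered pairs (points, pair 4 in red) for the 10 called genes, with the 95% interval from the blocked model (grey bar). All 5 points of each gene lie on one side of 0.

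Other genes with the smallest p-values that kept their sign in all 5 pairs did not pass in either model, but passed in other fits. With the block and the GC trend removed, the adjusted p in edgeR was 0.0047 for Rps12, 0.00924 for Gm16215, 0.0386 for Gm15657, 0.0318 for Nox1, 0.00839 for Mreg and 0.00161 for Tef, and with the block and without number 4 it was 0.00424, 0.0102, 0.0355, 0.00158, 0.00395 and 0.00233. Higher with UK14,304 were Rps12, a ribosomal protein gene with copies in 29 other genes over 43.7% of its longest transcript (blocked log2 difference 0.35, edgeR's adjusted p = 0.0584), the processed pseudogene Gm16215 (1.24, adjusted p = 0.0655; 0.459 to 0.978 CPM with norepinephrine and 1.1 to 2.07 CPM with UK14,304), and the antisense gene Gm15657 (0.56, adjusted p = 0.114). Nox1, the NADPH oxidase of the intestinal epithelium, was at 38.8, 44.8, 45.3, 24.3 and 42.9 CPM in norepinephrine samples 1 to 5 and 46.7, 58.9, 53, 35.8 and 59.6 CPM in UK14,304 samples 1 to 5 (blocked log2 difference 0.38, edgeR's adjusted p = 0.0892). Both samples of number 4 were the lowest of their groups. On the opposite strand, which the counting did not separate, Gm16215 overlaps Clca3b, Gm15657 overlaps Heg1 and Muc13, and Tef overlaps Gm17597. Nox1 overlaps Arl13a and Cstf2 on the opposite strand and Xkrx on its own. Rps12, at 11.6 to 14.2 CPM with norepinephrine and 14.7 to 19.0 CPM with UK14,304, overlaps Gm23130, Snora33 and Snord100 on its own strand. Mreg was higher, with a blocked log2 difference of 0.23 (edgeR's adjusted p = 0.105). In the other direction, Tef, a clock-controlled transcription factor, was at 53.7 to 58.5 CPM with norepinephrine and 42.4 to 52.3 CPM with UK14,304, without overlap (blocked log2 difference -0.25, edgeR's adjusted p = 0.0554).

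The genes of hypoxia and glycolysis were the most one-sided of the lists with 10 or more tested members. Glycolytic enzymes turn glucose into pyruvate and lactate, and several of them, with Car9, Vegfa, Bnip3, Egln3, Ankrd37, Ndrg1 and Pdk1, are induced by the hypoxia-inducible factors. All 20 members were tested. Of these, 19 were lower with UK14,304 by sign (46.3% of all genes were) and 1, Txnip, was higher. The median log2 difference was -0.17, against 0.00582 over all genes. None of the 19 passed an adjusted p of 0.05 in edgeR without or with the block. At an unadjusted p below 0.05, 6 of 20 were lower without the block (1.76% of all genes) and 19 of 20 with it (3.47% of all genes). In 13 of 20 every pair was lower, against 3.14% of all genes. With the block and the GC trend removed, 11 of the 20 fell at an adjusted p below 0.05 (0.623% of all genes), and by DESeq2 with the block 6 of 20 fell (0.308% of all genes). Without pair 4, the blocked model had 7 of 20 lower at the adjusted threshold (3.93% of all genes) and a median of -0.16. The medians of the list within pairs 1 to 5 were -0.06, -0.05, -0.31, -0.31 and -0.15, so pairs 1 and 2 showed much smaller differences than pairs 3 and 4.

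Members are named here after their values were seen. Among the regulators, Pfkfb3, which makes the activator of phosphofructokinase, was at 89.8, 92.9, 78.9, 92.6 and 89.4 CPM in norepinephrine samples 1 to 5 and at 78.5, 86, 52.6, 82 and 72 CPM in UK14,304 samples 1 to 5, with a blocked log2 difference of -0.27 (SE 0.06, 95% interval -0.39 to -0.14) (edgeR's adjusted p = 0.114). Egln3, an oxygen-sensing prolyl hydroxylase, was at 297, 324, 248, 331 and 319 CPM and 263, 312, 175, 285 and 249 CPM, with a blocked difference of -0.26 (SE 0.06, 95% interval -0.38 to -0.14). For both genes the groups overlapped and UK14,304 3 was the lowest of the 10 samples. Ankrd37, a hypoxia-induced gene, had a blocked difference of -0.32 (SE 0.07, 95% interval -0.47 to -0.16), and Bnip3, which acts in mitophagy, one of -0.31 (SE 0.08, 95% interval -0.48 to -0.14). Both of these passed with the block and the GC trend removed (edgeR's adjusted p = 0.0386 and 0.0328), whereas Pfkfb3 and Egln3 did not (0.137 and 0.193). The Ankrd37 locus overlaps Lrp2bp and Ufsp2 on the opposite strand, and 26.3% of its longest transcript has near copies in 2 other genes.

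Among the enzymes, Ldha, the lactate dehydrogenase subunit, was at 1817, 1789, 1506, 2022 and 1680.4 CPM in norepinephrine samples 1 to 5 and at 1769, 1763, 1286, 1629 and 1606 CPM in UK14,304 samples 1 to 5, a small difference of -0.13 (SE 0.04, 95% interval -0.22 to -0.04) with the block. Pgk1, phosphoglycerate kinase, was at 34.8, 34.5, 33.4, 39.4 and 37.4 CPM and 33.5, 33.1, 24.9, 30.5 and 30.5 CPM, with a blocked difference of -0.24 (SE 0.06, 95% interval -0.36 to -0.12). Pdk1, which inhibits pyruvate dehydrogenase, was at 397, 392, 340.1, 384 and 377 CPM and 340.2, 358, 284, 391 and 315 CPM, with a blocked difference of -0.17 (SE 0.04, 95% interval -0.25 to -0.08); it was lower in pairs 1, 2, 3 and 5 and slightly higher in pair 4. All 3 passed with the block and the GC trend removed (edgeR's adjusted p = 0.0318, 0.013 and 0.003). The glucose transporter Slc2a1 had a blocked difference of -0.21 (SE 0.06, 95% interval -0.34 to -0.08) and did not pass with the block and the GC trend removed. Many members share sequence with copies elsewhere: the part of the longest transcript with near copies was 94.2% for Bnip3, 85.6% for Eno1, 68.8% for Pgk1, 65.5% for Pkm and 55.0% for Ldha, and Gapdh had near copies in 174 other genes, so their levels are uncertain.

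The median of the vehicle difference (DMSO minus HCl) over the 20 members was -0.03, with 18 of 20 below 0 and 0 of 20 at an unadjusted p below 0.05 with the block. The median of the vehicle-corrected difference was -0.14, with 19 of 20 below 0 and 6 of 20 at an unadjusted p below 0.05 with the block (2.66% of all genes). Of the 19 members with a RefSeq promoter window, 10 held an ACGTG match (Slc2a1, Hk2, Pfkfb3, Pgk1, Pgam1, Ldha, Bnip3, Car9, Ankrd37 and Egln3), against 16.6% of all windows. These 19 windows include that of Txnip, the member that was higher. The list holds genes induced by the hypoxia-inducible factors, so this share describes the list and not the response to the agonists. CCAAT was in 9 of the 19 (33.8% of all windows), TGACG in 4 (17.8%), CACGTG in 2 (6.02%), TGACGTCA in 1 (1.55%) and TATAAA in 0 (12.4%).

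**Figure D4:**
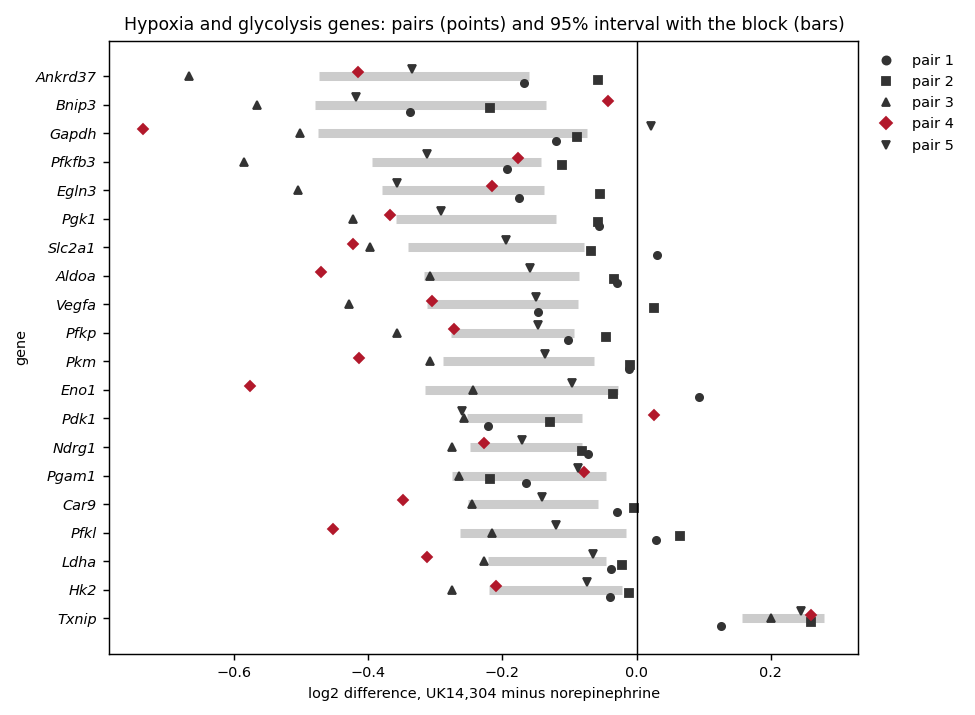
Log2 difference (UK14,304 minus norepinephrine) of the 20 hypoxia and glycolysis genes within each of the 5 pairs (points, pair 4 in red) and the 95% interval of the blocked model (grey bars, not adjusted for the number of genes). All intervals but that of Txnip lie below 0; pairs 1 and 2 lie nearest to 0 for most members.

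Genes of the circadian clock were mostly lower with UK14,304 by sign. The clock is a feedback loop in which CLOCK and ARNTL (BMAL1) drive the Per and Cry genes and output genes such as Dbp and Tef. Of 15 members, 13 were lower and 2 higher, with a median of -0.09, and 0 passed in either model. At an unadjusted p below 0.05, 3 of 15 were lower without the block (1.76% of all genes) and 3 with it (3.47% of all genes), and 4 of 15 were lower in every pair (3.14% of all genes). Dbp was at 7.11, 5.6, 5.62, 7.93 and 5.81 CPM in norepinephrine samples 1 to 5 and at 4.9, 4.66, 3.97, 4.4 and 5.79 CPM in UK14,304 samples 1 to 5, with a difference of -0.44 (SE 0.11, 95% interval -0.67 to -0.20) (edgeR's adjusted p = 0.574, and 0.201 with the block). The 2 groups overlapped slightly and the pair differences ranged from -0.84 to -0.01. The Dbp locus overlaps Sphk2 on the opposite strand, and 29.5% of its longest transcript has near copies in 1 other gene. Per1, also a cyclic AMP target, had a difference of -0.18 (SE 0.09, 95% interval -0.36 to 0.00), and Arntl, which is expressed opposite to Dbp, one of 0.07 (SE 0.05, 95% interval -0.04 to 0.17). With the block and the GC trend removed, 2 of 15, Tef and Dbp, fell at the adjusted threshold (adjusted p = 0.00161 and 0.013; 0.623% of all genes were lower there). Without number 4, Tef and Nr1d2 passed as lower in the blocked model (3.93% of all genes). With the GC trend removed as well, Tef, Dbp and Per1 passed as lower there (edgeR's adjusted p = 3.11e-05, 0.0186 and 0.0154), against 1.03% of all genes. The labels do not give the hour of harvest.

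Of the lists downstream of the receptors, 1 gene, Egr1, passed over all 5 pairs in edgeR with the block before removal of the GC trend. Cyclic AMP-responsive genes are induced by Gs and restrained by Gi signals. Of 15 tested, 7 were higher and 8 lower with UK14,304, with a median of -0.02, and 0 passed in edgeR without or with the block. Fos, an immediate early gene, had the smallest p of the list (blocked log2 difference 0.27 (SE 0.07, 95% interval 0.13 to 0.41), edgeR's adjusted p = 0.174). Fos was higher in 4 of 5 pairs, with pair 4 at -0.0009, and passed with the block and the GC trend removed (adjusted p = 0.0187) and with the block and without number 4 (adjusted p = 0.00342). With both changes, Fos passed as higher and Per1 as lower (edgeR's adjusted p = 0.00519 and 0.0154), against 0.441% and 1.03% of all genes. Pck1, the gluconeogenic enzyme PEPCK, was at 6.66, 5, 6.52, 4.46 and 5.97 CPM in norepinephrine samples 1 to 5 and 6.55, 6.42, 6.32, 6.79 and 8.47 CPM in UK14,304 samples 1 to 5, and its difference of 0.27 (SE 0.12, 95% interval 0.01 to 0.52) did not pass. Of 14 ERK-responsive genes tested, Egr1 alone passed, and with the block only; the median was 0.02, and the lowest value was that of Ier3, -0.23 (SE 0.15, 95% interval -0.55 to 0.09). Of 29 genes for G proteins, adenylyl cyclases, protein kinase A subunits, arrestins and receptor kinases, 0 passed and the median was 0.01. With the block and without number 4, Adcy6, Grk2 and Grk6 were called higher by 0.11 to 0.13 (2.54% of all genes) and Gnai3 lower by 0.11 (3.93% of all genes), and in pair 4 all 4 genes had the opposite sign; with the GC trend removed as well, 0 were called. Adcy5, an adenylyl cyclase inhibited by Gi, had 14 to 34 counts per sample. Its level was 0.643 to 0.937 CPM with norepinephrine and 0.91 to 1.28 CPM with UK14,304. The gene was higher in 5 of 5 pairs, with a blocked log2 difference of 0.54 (SE 0.18, 95% interval 0.17 to 0.91, edgeR's adjusted p = 0.442).

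Norepinephrine is a catechol that cells take up and metabolize, while UK14,304 is not a catecholamine, so genes for monoamine handling, oxidant defence and drug metabolism were examined. In monoamine handling (9 of 12 tested) 0 passed in edgeR without or with the block over all 5 pairs and the median was 0.04. Sult1a1, a sulfotransferase, had a difference of 0.36 (SE 0.32, 95% interval -0.31 to 1.03). With the block, the GC trend removed and without number 4, 1 of 9, Maoa, passed as higher (0.10, edgeR's adjusted p = 0.0314), against 0.441% of all genes. The Maoa differences before GC correction were -0.04, -0.04, 0.05 and 0.04 in pairs 1, 2, 3 and 5. In oxidant defence 0 of 12 passed and the median was 0.01, from Slc7a11, the cystine transporter, at -0.36 (SE 0.25, 95% interval -0.89 to 0.16) to Gclc at 0.10 (SE 0.07, 95% interval -0.04 to 0.23). The pair differences of Slc7a11 were -0.58, -0.21, -1.03, 0.33 and -0.68 for pairs 1 to 5, and without number 4 its blocked value was -0.59 (edgeR's adjusted p = 0.00255), so that 1 of 12 passed there. In the xenobiotic response 0 of 15 tested passed in edgeR without or with the block over all 5 pairs and the median was -0.07. DESeq2 with the block called 1 of 15 lower, Cyp2c55 (-0.27, DESeq2's adjusted p = 0.0163), against 0.308% of all genes. Without number 4 the blocked model called 7 of 15 lower (3.93% of all genes), with a median of -0.15, among them Cyp2c65, a cytochrome P450 (-0.20, edgeR's adjusted p = 0.00126), and Tiparp, a target of the aryl hydrocarbon receptor (-0.21, adjusted p = 0.00923). In pair 4 itself Cyp2c65 was higher by 0.33 and Tiparp by 0.58. With the block and the GC trend removed, 0 of 15 were called over all 5 pairs and 1 of 15, Cyp2c65, without number 4 (1.03% of all genes). Cyp1a1, induced through the aryl hydrocarbon receptor, was at 0.247, 0.23, 0.204, 0.276 and 4.1 CPM in norepinephrine samples 1 to 5 and 0.475, 0.574, 0.413, 0.228 and 0.389 CPM in UK14,304 samples 1 to 5; its negative log2 difference of -1.29 (SE 0.75, 95% interval -2.89 to 0.30) rested on norepinephrine 5 and turned positive (0.78 to 0.79) when that sample or number was left out. Ahrr, the receptor's repressor, had a difference of 0.37 (SE 0.35, 95% interval -0.36 to 1.10).

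Over all 5 pairs, no cell type or proliferation gene passed in edgeR without or with the block. The stem cell marker Olfm4 was at 3017 to 4470.5 CPM with norepinephrine and 3086 to 4984 CPM with UK14,304, a difference of 0.09 (SE 0.16, 95% interval -0.26 to 0.44). Bmi1, a Polycomb gene used as a reserve stem cell marker, differed by -0.07 (SE 0.11, 95% interval -0.30 to 0.15), and Slc12a2, a crypt ion transporter, by 0.05 (SE 0.07, 95% interval -0.10 to 0.20). The proliferation genes Mki67 and Top2a differed by 0.07 (SE 0.05, 95% interval -0.04 to 0.18) and 0.05 (SE 0.06, 95% interval -0.08 to 0.17), and 0 of 22 cell division genes passed (median 0.02). The goblet cell genes Muc2 and Tff3 differed by 0.16 (SE 0.09, 95% interval -0.04 to 0.36) and -0.02 (SE 0.10, 95% interval -0.24 to 0.19), and the Paneth cell lysozyme Lyz1 by 0.09 (SE 0.16, 95% interval -0.25 to 0.42). For these 8 genes the adjusted p in edgeR was 1 without the block. The interval reached no further than 0.18 for Mki67, and as far as 0.44 for Olfm4 and 0.42 for Lyz1, so larger differences would be needed for detection in those 2 genes.

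With the block and without number 4, Bmi1 passed as lower (-0.22, edgeR's adjusted p = 0.016) and Tff3, with its sign turned, as higher (0.12, adjusted p = 0.0295), against 3.93% and 2.54% of all genes in those directions. Of the cell division genes, Ccne1, Plk1 and Mcm7 passed as higher there, by 0.11 to 0.24, Defa30 of the Paneth cell products as higher by 0.11, and Chgb of the enteroendocrine genes as lower by 0.10. With the GC trend removed as well, Chgb passed (adjusted p = 4.76e-04) and the others did not.

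Over whole lists and all 5 pairs, 0 of 6 stem cell, 4 enterocyte, 5 Paneth cell, 4 goblet cell, 5 enteroendocrine and 2 tuft cell genes tested passed, with medians of 0.02, -0.07, -0.03, -0.02, -0.06 and 0.09. All 4 enterocyte genes were lower by sign. Of 17 Paneth cell products tested 0 passed (median 0.00), and 3 (Reg3g, Reg3b and Pla2g2a) had an unadjusted p below 0.05 with the block, all higher with UK14,304 (2.24% of all genes). Reg3g, an antimicrobial lectin, was at 76.4, 61, 68.1, 49.1 and 65.4 CPM in norepinephrine samples 1 to 5 and 98.3, 67.1, 89.4, 54.1 and 70.4 CPM in UK14,304 samples 1 to 5, higher in 5 of 5 pairs (0.23 (SE 0.07, 95% interval 0.10 to 0.37) with the block, edgeR's adjusted p = 0.254). Its levels differed more between numbers than between agonists. Pla2g2a, a secreted antibacterial phospholipase, was higher in 5 of 5 pairs by 0.06 to 0.29, and the α-defensin Defa29 had a difference of -0.16 (SE 0.25, 95% interval -0.67 to 0.36). None of the 7 epithelial genes passed (median 0.01), and among the markers of other cell types 1 mesenchymal, 3 immune, 1 endothelial and 2 neuronal or glial genes had enough counts to be tested and 0 passed.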

How the data were processed

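The 18 libraries were poly(A)-selected (KAPA mRNA HyperPrep) and sequenced in bulk. The deposited counts are whole reads per gene that the authors obtained with STAR 2.7.3 on GRCm38 and featureCounts; the file header names featureCounts 2.0.1 and Ensembl 102, with no option for strand, while the submitters' notes name Subread 1.6.4. Reads of overlapping genes on opposite strands, and of near-identical copies, can therefore be assigned to either gene or lost. A near copy is a stretch of a transcript found at 95% identity or more over at least 50 bases in another gene.

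Of 55487 genes, 15247 passed edgeR's expression filter. One model with 4 groups and all 18 samples, without the sample number as a term, was fitted with edgeR 4.0.16 (TMM, quasi-likelihood test, Benjamini-Hochberg adjustment over all tested genes, R 4.3.3), and printed adjusted p-values come from it unless stated; the same model with the sample number as a block is named as such. CPM are counts relative to the library total, after TMM scaling. Exact permutation tests over the 5 against 5 samples are two-sided and can give no p below 0.00794. The pairs come from the sample numbers in the titles. Correlations of deviations from the group means between same-numbered agonist samples were 0.107, 0.388, 0.436, -0.212 and 0.0407 for numbers 1 to 5, with numbers 4 and 5 under 0.1; their mean was 0.152, against -0.0383 between different numbers, and over all groups the means were 0.277 (25 pairs) and -0.0716 (96 pairs). As the labels do not say that samples came from separate animals, p-values measure only the spread between these samples.

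Genes named are those past an adjusted p of 0.05 in either model, the 8 smallest blocked p-values in each direction among genes with one sign in all 5 pairs, the adrenergic receptors, genes the study names, and the lowest and highest member of each list; further genes are marked in the text as named after their values were seen or are given as list members. Members and lists were chosen with earlier results of these data known. Alternatives were DESeq2 1.42.0, other normalization and filters, removal of the GC trend (lowess, span 0.3), the 10 agonist samples alone, libraries with a ribosomal RNA share under 1%, and leaving out libraries or numbers. Fits with the ribosomal RNA share, and those that left out a whole number from the fit of all groups, were added after seeing the data. The fits were tested on simulated data. Some results are not reported here.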

Additional observations from a re-analysis of the deposited data

Results flagged for a closer look

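In 9 of 108 group and measure combinations searched in the agonist samples, 1 sample lay far from the rest of its group; the limit used is Dixon's 95% critical value, by which chance is set to flag about 1 in 20. Rbm3 in norepinephrine 3 was at 46.32 CPM, against 39.3 to 40.6 CPM in the other 4 samples. Ak4 in norepinephrine 3 was at 83.24 CPM, against 109.7 to 118 CPM. Cyp1a1 in norepinephrine 5 was at 4.096 CPM, against 0.204 to 0.276 CPM, and Pck1 in UK14,304 5 was at 8.472 CPM, against 6.32 to 6.79 CPM. Adra1b in norepinephrine 2, at 0.04591 CPM, and Adrb1 in UK14,304 3, at 0.0413 CPM, were above 0 where the other 4 samples were at 0. Of the library measures, the ribosomal RNA share was 1.971% in UK14,304 1, against 0.340 to 0.619%, the slope on GC content was 0.1945 in norepinephrine 4, against -0.146 to -0.07, and the summed level of neuronal and glial genes was 1.536 CPM in UK14,304 1, against 2.55 to 2.81 CPM.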

How the results depend on the processing

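The count of genes past an adjusted p of 0.05 between the agonists (2 by edgeR without pairs) depended on the design. It was 4 at an adjusted p of 0.1, 10 with the replicate block, 5 with the GC trend removed, 112 with the block and the GC trend removed, 8 by DESeq2, 55 by DESeq2 with the block, 8 with the block and the ribosomal RNA split, 0 with only libraries under 1% ribosomal RNA (349 at an unadjusted p below 0.05), and 0 in the 10 agonist samples alone without (406) or with (525) the block. DESeq2 size factors, no filter and a filter of 10 counts in every sample left it at 2. Leaving out 1 library at a time gave 0 to 4, leaving out number 1, 2, 3, 4 or 5 gave 1, 0, 0, 984 and 6 with the block and 69, 84, 30, 224 and 53 with the GC trend removed as well, and 0 to 1330 in the 10 agonist samples (1330 without number 4, 0 without each other number). The cause was not tested. The vehicle-corrected count was 0 except for 1 by DESeq2 with the block and 0 to 12 with the block and 1 number left out (12 without number 4). The vehicle count was 0 in every fit in which it was taken. It was not taken in the blocked fits with 1 number left out.

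The 10 genes called with the block kept their direction in all 39 fits, which reuse the same samples and are not separate support. All 10 were called by DESeq2 with the block, and 4 by DESeq2 without it. Over the genes named, 1190 values kept direction and side of the threshold, 148 passed where they had not, 30 no longer passed and 34 changed sign, all in genes that had not passed. Adra2a, at 0.00 in the model without pairs, changed to -0.000865 without a filter, -0.00989 with the GC trend removed, -0.00868 with the block as well, -0.00138 and -0.00264 with the ribosomal split with and without the block, and -0.00935 in libraries under 1% ribosomal RNA, where Cyp1a1 became 0.813. With 1 library left out, the log2 difference ranged from -0.0299 to 0.0393 for Adra2a, -1.55 to 0.787 for Cyp1a1, -0.0154 to 0.174 for Olfm4, -0.0112 to 0.0942 for Slc12a2 and -0.0842 to 0.0533 for Tff3, that in ribosomal RNA share from -0.491 to 0.05 and that in the GC slope from -0.0375 to 0.0508. With the block and 1 number left out, the values that changed sign are given here for all groups, for the 10 agonist samples and with the GC trend removed. Without number 2, Adra2a was at -0.0388, -0.0389 and -0.0392. Without number 3, Adra2a was at -0.0101, -0.0102 and -0.0123. Without number 4, Tff3 was at 0.116, 0.115 and 0.0564, Slc12a2 at -0.0505 and -0.0509 and Top2a at -0.0196 and -0.0197 (both without GC correction), and Adra2a at -0.0432 (with it). Without number 5, Cyp1a1 was at 0.790, 0.782 and 0.789.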
